A study of Homo sapiens with 32 samples.

Results

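The genes described are 4 members of the L6 family of TM4SF proteins, TM4SF1 (ENSG00000169908.6), TM4SF4 (ENSG00000169903.6), TM4SF18 (ENSG00000163762.2) and TM4SF19 (ENSG00000145107.11), out of 57820 genes listed for each HCT116 library. They were selected by name because earlier results of the same counts had shown one of them switched on, so the values of the E7 comparison that chose them are given below as a description, without a test. The counts went against the label under which the genes were grouped: of the 4, TM4SF18 alone was switched on, in 1 of 10 HCT116 clones. TM4SF1 and TM4SF4 had no more than 1 count in any library, and TM4SF19 had low counts in nearly every library.

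RNA was measured in 26 libraries of clonal lines, each expanded from 1 sorted cell after delivery of Cas9 fused to GFP. In HCT116, a human colorectal cancer line, 1 clone lacked the distal element E7 and was sampled on extraction days A, B and C (3 libraries). Another 3 clones lacked the element 18qNE (1 library each, days A, B and A), and 2 clones lacked the element 18qE (day D). The controls were clones that had received Cas9-GFP with the empty guide vector: 12 libraries from 4 clones sampled on the days of the E7 clone, and 2 of these clones again on day D. In HEK293, a human embryonic kidney line, 2 libraries with E7 deleted were compared with 2 control libraries on day E, and the 2 deletion libraries carry the same clone label. Because E7 was deleted in 1 HCT116 clone only, an effect of the deletion and a property of that clone cannot be told apart. Where the deleted elements lie is not stated in the labels.

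L6 proteins have the same outline as tetraspanins, with 4 passes through the membrane and a pair of extracellular loops, but form a separate family. Like tetraspanins, they sit in membrane domains together with integrins and other receptors, and they are studied for roles in cell adhesion, migration and invasion. TM4SF1, the tumour antigen L6, is abundant in endothelial cells and in many carcinomas, TM4SF4 is best known from liver, intestine and pancreas, TM4SF18 is the least studied of the cluster, and TM4SF19 was described in osteoclasts. TM4SF18, TM4SF1 and TM4SF4 lie side by side on chromosome 3q25, between CP and WWTR1, and TM4SF19 lies on its own at 3q29, further along the same arm.

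The promoter windows are shown because the 4 genes stood in different states in the same libraries. Each window runs, on the strand of its gene, from 250 bases before the annotated start through the first 50 bases of the transcript (RefSeq, GRCh38.p14), and capitals mark matches on either strand to GGAATG (the TEAD motif), TGANTCA (the AP-1 motif), CACGTG (the E-box bound by MYC) or TATAAA (the TATA box). The windows are chr3:149333587-149333886 on the minus strand for TM4SF18, chr3:149377600-149377899 on the minus strand for TM4SF1, chr3:149474447-149474746 on the plus strand for TM4SF4 and chr3:196338339-196338638 on the minus strand for TM4SF19.
TM4SF18: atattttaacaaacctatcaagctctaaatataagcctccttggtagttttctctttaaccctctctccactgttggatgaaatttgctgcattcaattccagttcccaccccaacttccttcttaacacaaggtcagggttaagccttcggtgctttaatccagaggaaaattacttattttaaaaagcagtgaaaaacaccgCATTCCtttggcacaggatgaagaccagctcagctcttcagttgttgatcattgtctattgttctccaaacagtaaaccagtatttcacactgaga
TM4SF1: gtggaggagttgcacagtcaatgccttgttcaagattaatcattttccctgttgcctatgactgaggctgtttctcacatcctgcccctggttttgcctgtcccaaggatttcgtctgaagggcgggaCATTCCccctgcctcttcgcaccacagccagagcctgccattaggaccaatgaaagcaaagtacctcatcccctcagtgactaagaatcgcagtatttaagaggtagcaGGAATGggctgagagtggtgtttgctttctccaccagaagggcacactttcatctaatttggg
TM4SF4: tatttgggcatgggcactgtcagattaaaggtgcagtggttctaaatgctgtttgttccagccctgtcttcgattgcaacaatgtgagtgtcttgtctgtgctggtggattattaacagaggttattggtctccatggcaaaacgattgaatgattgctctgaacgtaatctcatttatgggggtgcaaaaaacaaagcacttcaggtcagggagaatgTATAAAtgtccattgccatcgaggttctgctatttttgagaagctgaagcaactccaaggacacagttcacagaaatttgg
TM4SF19: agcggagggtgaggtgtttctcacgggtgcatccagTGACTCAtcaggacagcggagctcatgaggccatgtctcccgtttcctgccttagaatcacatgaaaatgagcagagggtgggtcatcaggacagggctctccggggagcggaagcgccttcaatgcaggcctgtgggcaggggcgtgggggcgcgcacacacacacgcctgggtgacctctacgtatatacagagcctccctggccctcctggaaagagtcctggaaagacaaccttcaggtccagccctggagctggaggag

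The TM4SF18 window held 1 TEAD match, at position -46 (the first base of the transcript is 0), and none of the other motifs. TM4SF1, which was silent, held the same motif, with 2 matches at -122 and -13. TM4SF4 held a TATA box at -31, and TM4SF19 an AP-1 match at -214. None of the 4 windows held the E-box. Of 34943 windows of the same length, 14.0% held the TEAD motif, 7.72% the AP-1 motif, 7.23% the E-box and 11.6% the TATA box on either strand. The TM4SF18 window was the poorest of the 4 in G and C, at 39.3% with 2 CG pairs, against a median of 58.7% and 14 CG pairs over all windows, while TM4SF19 was at 60.3% with 12. These matches describe the letters of the windows and were not tested for use in the cells.

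The total of gene counts per library was 9871667 to 14862268 for days A to C. It was 22972412 to 24887785 for day D and 26491576 to 34790193 for HEK293. Levels are given as CPM, the count divided by the total gene counts of the library and scaled to 1e+06. A gene was called off in a library with at most 3 counts and on at 1 CPM or more, with "low" between. CPM is not corrected for gene length, so levels are compared between libraries and not between genes. In bulk libraries, fewer cells with a transcript and less transcript per cell cannot be told apart. Epithelial markers, the identity of the line, had a sum of 4413 to 5896 CPM in the E7 clone and of 3970 to 6548 CPM in the control clones on days A to C.

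TM4SF18 had 779, 578 and 391 counts in the E7 clone on days A, B and C, which is 52.4, 40.6 and 34.0 CPM. The 12 control libraries of the same days had 0 counts in 11 and 1 count in the other, on day B in control clone 1. The 18qNE clones had 0, 1 and 0 counts, the 18qE clones 0 and 1, and the control clones of day D 1 each. The gene was thus on in all 3 E7 libraries and off in all 19 other HCT116 libraries, with no library in between, and the contrast was the same within each of days A, B and C. The E7 libraries averaged 42.3 ± 9.31 CPM (SD, n = 3 libraries of 1 clone), and the 19 others held 5 counts between them, 0.0177 CPM when pooled. The ratio of the pooled levels was 2437 (exact 95% interval 1042 to 7515, covering counting error only). Against the 12 control libraries alone, with their single count, it was 6394 (1146 to 252691).

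Within the E7 clone, day A had the highest TM4SF18 level and its 95% counting interval, 48.8 to 56.2 CPM, lay above those of day B (37.3 to 44.0 CPM) and day C (30.7 to 37.6 CPM). Days B and C overlapped narrowly. With 1 library a day, a difference between days and the spread between libraries cannot be told apart, and these intervals cover counting error only. The lowest of the 3 levels was still far above that of any other clone. TM4SF18-AS1, the antisense gene at this locus, had 3, 0 and 0 counts on days A, B and C in the E7 clone, against 0 to 3 per control library of the same days. Whether the counting used strand is not stated, and ambiguous reads were kept in a class of their own. If strand was not used, reads from where TM4SF18 and its antisense partner overlap may be missing from both.

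The other 2 genes of the cluster stayed off in the clone in which TM4SF18 was on. TM4SF1 had 0 counts in the 3 E7 libraries, which allows up to 0.0739 CPM over the group (3 counts), and 0 in the 3 18qNE and 12 control libraries. Its only count in 22 libraries was 1, in 18qE clone 1. TM4SF4 had 0 counts in all 22 libraries, which allows up to 0.00927 CPM over all of them. TM4SF1-AS1 was at 0 counts throughout as well. At this depth no difference between groups was detectable for either gene.

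TM4SF19 was the one member with counts in every library. The E7 clone had 16, 10 and 10 counts on days A, B and C, and the 12 control libraries 3 to 13, with a median of 0.619 CPM. The 18qNE clones had 9, 18 and 13 counts, the 18qE clones 7 and 16, and the control clones of day D 13 and 9. By state, TM4SF19 was on in 2 of 22 libraries (E7 on day A at 1.08 CPM and 18qNE clone 2 at 1.28 CPM), off in 1 (control clone 2 on day B, with 3 counts) and low in 19. The library closest below the limit of 1 CPM was control clone 2 on day C, at 0.995 CPM, so the on state of these 2 libraries is no separate group.

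Ordered by mean level, TM4SF19 was at 1.01 ± 0.246 CPM in the 18qNE clones (SD, n = 3), 0.883 ± 0.187 CPM in the E7 libraries (n = 3 libraries of 1 clone), 0.639 ± 0.260 CPM in the control libraries of days A to C (n = 12), 0.487 ± 0.291 CPM in the 18qE clones (n = 2) and 0.459 ± 0.0946 CPM in the control libraries of day D (n = 2). Each pair of neighbours in this order overlapped in range. With the libraries summed per clone, TM4SF19 was at 0.887 CPM in the E7 clone and at 0.539 to 0.704 CPM in the 4 control clones, a log2 change of 0.51. That value belongs to the comparison on which the genes were chosen and carries no test. Set against the 18qNE clones, which have no library of day C, the E7 clone summed over days A and B was lower, at a log2 change of -0.19.

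**Figure D1:**
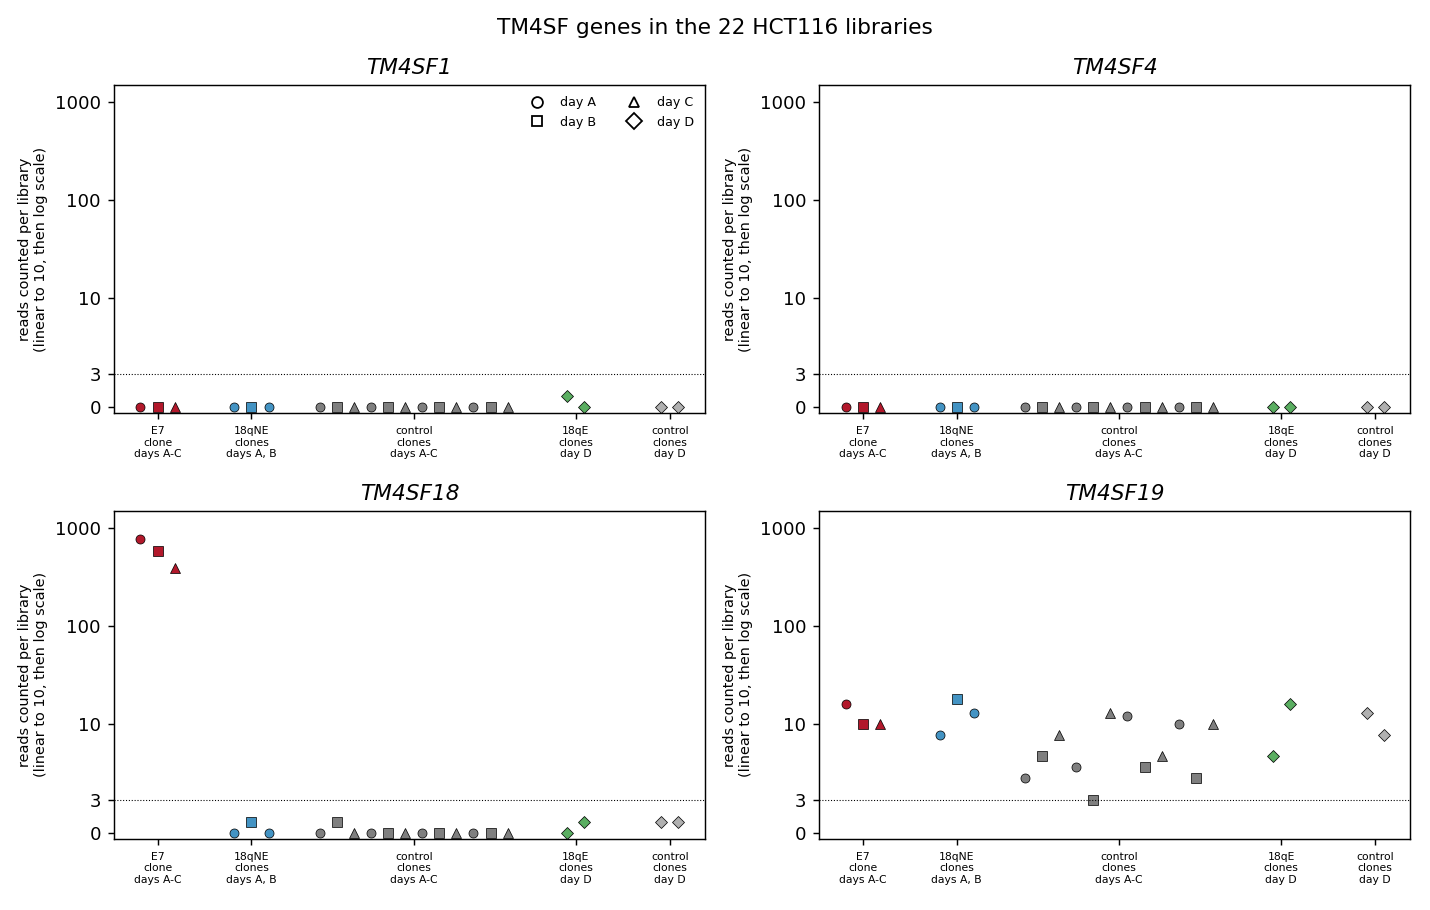
Reads counted per library for the 4 genes in the 22 HCT116 libraries, 1 point a library, with colour for the group and marker shape for the extraction day; the dotted line marks 3 counts and the axis is linear to 10 and logarithmic above. TM4SF18 sits at 391 to 779 counts in the E7 clone and at 0 or 1 elsewhere, TM4SF1 and TM4SF4 lie at 0 with a single count of 1, and TM4SF19 ranges from 3 to 18 in all groups.

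The other deletions were tested in TM4SF19, the only member above the filter on low counts. By edgeR (quasi-likelihood F test, Benjamini-Hochberg over all genes tested), TM4SF19 was at 1.01 CPM in the 18qNE clones and 0.535 CPM in the control libraries of days A and B (n = 8 libraries of 4 clones), a log2 change of 0.97 (SE 0.35), and did not pass (unadjusted p = 0.0213, adjusted p = 1.00). The lowest 18qNE library, at 0.791 CPM, lay within the control range of 0.225 to 0.932 CPM. By day, the 18qNE clones were at 0.791 and 0.976 CPM against 0.363 to 0.932 CPM in the control clones on day A, and at 1.28 CPM against 0.225 to 0.543 CPM on day B. In that comparison 0 of 15524 genes passed (0%), 505 had an unadjusted p below 0.05, and DESeq2 called 13. Between 18qE and control clones of day D the log2 change of TM4SF19 was 0.10 (SE 0.56, adjusted p = 1.00), and it turned to -0.62 without 18qE clone 2 and to -0.09 without control clone 2. There 0 of 15261 genes passed (0%), 391 had an unadjusted p below 0.05, and DESeq2 called 19.

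Among the control clones themselves, TM4SF19 did not pass between clones (largest difference 0.45 on the log2 scale, edgeR adjusted p = 0.871; 1.12 without day C, adjusted p = 0.841) or between days (0.995, adjusted p = 0.144). By day, the control clones averaged 0.647 CPM on day A, 0.423 CPM on day B and 0.846 CPM on day C. Over all genes tested, 7.8% differed between clones and 38.2% between days. TM4SF19-AS1, the antisense gene at 3q29, had 0.807 ± 0.154 CPM in the E7 libraries (n = 3) and 0.423 ± 0.140 CPM in the control libraries (n = 12), and with a log2 change of 0.97 (SE 0.32) it did not pass (edgeR adjusted p = 0.0879). TM4SF19-DYNLT2B, a read-through transcript that shares sequence with TM4SF19, had 0 to 3 counts in any library. The counting kept ambiguous reads in a class of their own. Reads that fit both of these overlapping genes may therefore be missing from both, and the TM4SF19 counts may be too low. Of the remaining relatives, TM4SF5 had 0 counts in all 22 libraries and TM4SF20 had 0, 2 and 3 counts in the E7 clone on days A, B and C, against 7 in the 12 control libraries together.

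The HEK293 comparison rests on a list of 11887 genes, whose selection is not stated, and the 4 genes were not analysed in HEK293.

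Genes that flank the cluster were compared to place the TM4SF18 change along the chromosome. Of the 20 nearest protein-coding genes, 10 on each side, 19 were matched in the files and 11 had enough counts to test. By edgeR 3 of the 11 rose in the E7 clone and none fell, where 7.58% of all 17664 genes tested rose, 6.32% fell and 13.9% passed in all. Each p of this comparison sets the 1 E7 clone against the spread of the 4 control clones, among which 7.8% of genes differed. The median log2 change of the 11 was 0.17, against -0.01 for all genes tested and -0.02 for the 762 tested protein-coding genes of chromosome 3. Of the 20 tested genes nearest to TM4SF18, 4 rose and none fell, at a median log2 change of 0.11. In a fit of single libraries with extraction day as a replicate block, 7 of the 11 passed, where 5187 of all 14869 genes did. That fit counts libraries of the same clone as separate samples, so its p-values measure the spread between libraries and not between clones. With 18qNE clones as the reference none of the 11 passed, where 79 of all 15155 genes did, a share too low to expect any among 11.

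WWTR1, the next gene beyond TM4SF4, encodes TAZ, a coactivator of TEAD factors in the Hippo pathway. It had 149, 116 and 114 CPM in the E7 clone on days A, B and C, against 32.1 to 70.1 CPM, with a median of 38.5 CPM, in the 12 control libraries. Every E7 library lay above every control library, and above the 3 18qNE clones (77.3, 28.8 and 48.5 CPM). The gap held within each day, with control libraries at 37.0 to 70.1 CPM on day A, 32.1 to 37.9 CPM on day B and 32.1 to 46.8 CPM on day C. The rise of WWTR1 was 1.54 in log2 units (SE 0.19, edgeR adjusted p = 0.00233). It also differed among the control clones (adjusted p = 0.0172, but 0.0551 without day A and 0.361 without day C; 33.6 to 51.4 CPM by clone) and among days (adjusted p = 0.00165), with largest differences of 0.55 and 0.53, and day A was the highest in the control clones as it was in the E7 clone. With 18qNE clones as the reference its log2 change was 1.38 and did not pass (adjusted p = 0.308; over 13 alternatives adjusted p ran from 6.87e-11 to 0.308).

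COMMD2, next after WWTR1, belongs to the COMMD proteins of endosomal sorting. It had 52.5, 56.3 and 53.7 CPM in the E7 clone and 34.0 to 45.5 CPM in the control clones, without overlap, and rose by 0.44 (SE 0.09, edgeR adjusted p = 0.0188). With 18qNE clones as the reference its log2 change was 0.43 and did not pass. HLTF, a DNA translocase of replication fork repair on the other side of the cluster, had 147, 130 and 131 CPM in the E7 clone and 77.3 to 148 CPM in the control clones, with overlap, and rose by 0.37 (SE 0.09, adjusted p = 0.0397). Within days, the overlap was on day A alone, with control libraries at 111 to 148 CPM. The control libraries were at 77.3 to 97.1 CPM on day B and 93.3 to 107 CPM on day C. Leaving out control clone 1 (0.36), control clone 4 (0.36) or E7 on day A (0.32) ended the call of HLTF, as did 18qNE clones as the reference (0.22).

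Of the 2 genes next to TM4SF18 on its own side, neither was called. CP, which encodes the copper protein ceruloplasmin, was at 0 to 0.140 CPM in the E7 clone and 0 to 0.166 CPM in the control clones, below the filter. HPS3, a subunit of a complex that builds lysosome-related organelles, had a log2 change of 0.17 (SE 0.13, adjusted p = 0.429). Along the chromosome the order was thus a silent gene (CP), an active one in the E7 clone (TM4SF18), a silent pair (TM4SF1 and TM4SF4) and a raised one (WWTR1). The 8 tested flanking genes that did not pass had log2 changes from -0.28 (SELENOT, adjusted p = 0.0527) to 0.22 (GYG1, adjusted p = 0.158).

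**Figure D2:**
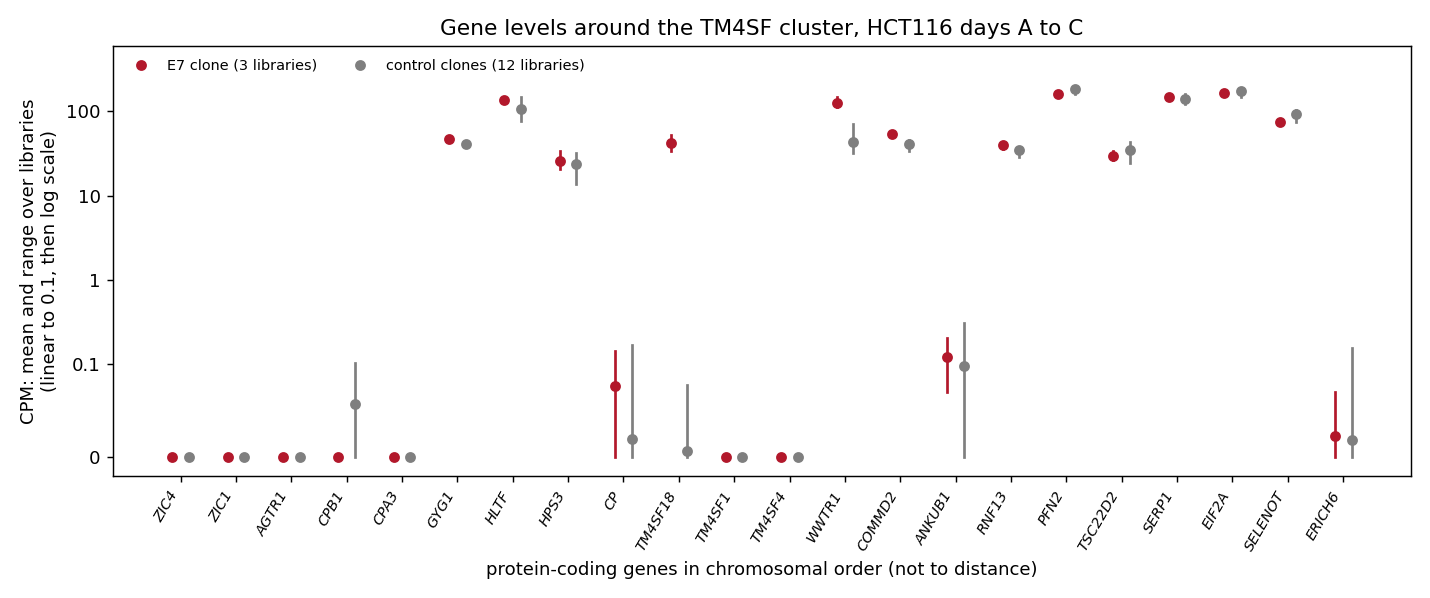
Levels of the protein-coding genes around the TM4SF cluster in chromosomal order, as mean (point) and range (line) over the 3 libraries of the E7 clone and the 12 control libraries; the axis is linear to 0.1 CPM and logarithmic above. TM4SF18 stands at 42.3 CPM in the E7 clone and near 0 in the control clones, TM4SF1 and TM4SF4 are at 0 in both, and WWTR1 is at 126 and 43.7 CPM.

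**Figure D3:**
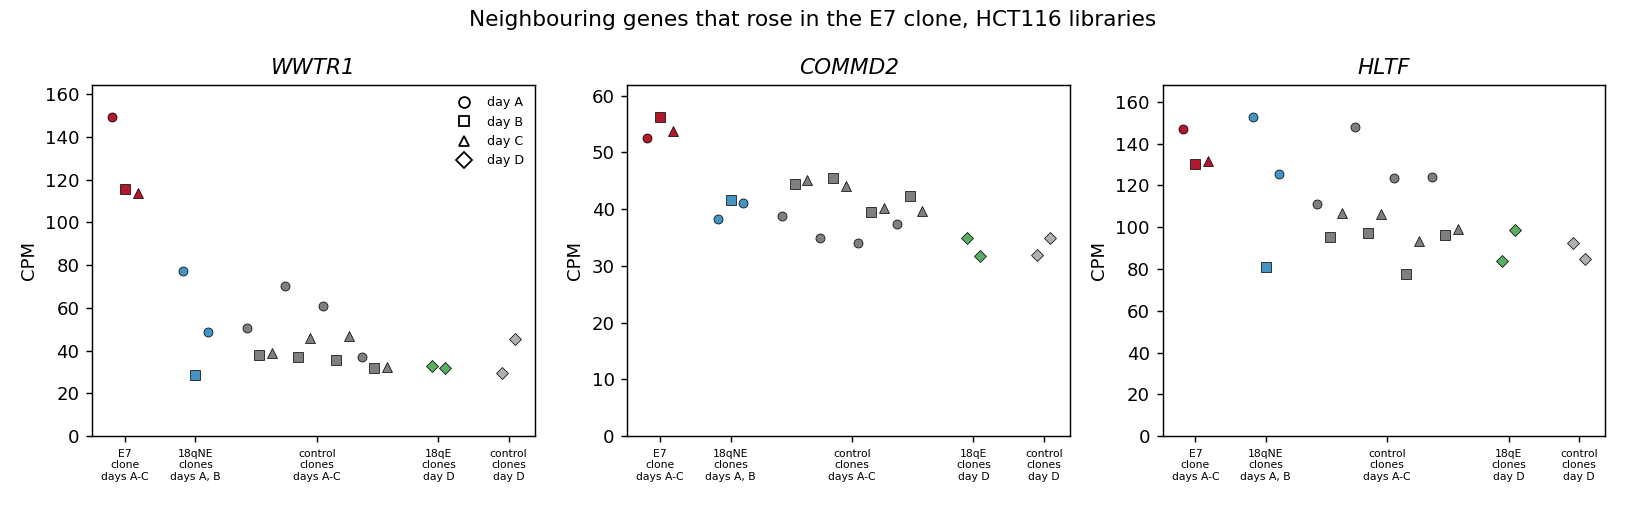
CPM per library of WWTR1, COMMD2 and HLTF in HCT116, 1 point a library, with colour for the group and marker shape for the extraction day. The E7 libraries lie above every control library for WWTR1 and COMMD2. For HLTF they lie within the control range pooled over days, and above the control libraries of the same day on days B and C.

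Around TM4SF19 at 3q29, 16 of 20 flanking genes were tested. In the E7 clone 2 of them rose and 1 fell, at a median log2 change of -0.02. These 3 of 16 are near the 13.9% called over all genes tested. PIGX, a subunit of the first enzyme complex in GPI anchor synthesis, rose by 0.48 (SE 0.10, adjusted p = 0.0198), and SENP5, a SUMO protease, by 0.29 (SE 0.08, adjusted p = 0.0438). MUC4, a membrane mucin, had 1.19 ± 0.572 CPM in the E7 libraries and 2.37 ± 0.595 CPM in the control libraries and fell by 0.95 (SE 0.24, adjusted p = 0.0374). The genes next to TM4SF19 did not pass: PCYT1A was at -0.05, DYNLT2B at 0.52 (SE 0.22, adjusted p = 0.158), UBXN7 at -0.20 and RNF168 at -0.10. The 3 calls at 3q29 depended on the settings: 5 of 13 alternatives ended that of PIGX, 6 that of SENP5 and 7 that of MUC4.

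In the 18qNE and 18qE comparisons no flanking gene of either locus passed, as no gene did in all. WWTR1 was at a log2 change of 0.19 (SE 0.27) in the 18qNE clones and -0.17 (SE 0.22) in the 18qE clones, and both directions turned when 1 clone was left out. Without 18qNE clone 1 the 18qNE value was -0.22 and without 18qNE clone 2 it was 0.47, while the 18qE value was 0.19 without control clone 2 and -0.46 without control clone 1. In HEK293, where 11 flanking genes of 3q25 were tested, none passed, and 3 of 11806 genes passed in all (0.0254%); 1487 genes had an unadjusted p below 0.05 and DESeq2 called 463. WWTR1 had 47.4 and 47.2 CPM in the HEK293 E7 libraries and 46.7 and 30.3 CPM in the HEK293 control libraries, a log2 change of 0.24 (SE 0.24, adjusted p = 0.671). Without HEK293 control 1 it was 0.53 and without HEK293 control 2 it was -0.01, so 1 control library decides the value. Each of these fits leaves 1 control library, so only the log2 change is given. The 2 HEK293 E7 libraries, which carry 1 clone label, count as 2 samples in these p-values; with the 2 summed, WWTR1 was at 0.23 (SE 0.49) and did not pass. Medians of the flanking genes at 3q25 were 0.07 for 18qNE (11 tested), 0.03 for 18qE (11 tested) and 0.20 for E7 in HEK293 (11 tested). The difference of the WWTR1 change between the lines was not tested.

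Tetraspanins, the larger family with the same membrane outline, were called about as often as other genes. Of 27 tested members 2 rose and 3 fell in the E7 clone, near the 7.58% and 6.32% over all genes tested, with a median log2 change of 0.03. CD9, a motility-related tetraspanin, had 248 ± 4.85 CPM in the E7 libraries and 157 ± 19.8 CPM in the control libraries and rose by 0.67 (SE 0.11, adjusted p = 0.00792). TSPAN9, which sits in microdomains of platelets, rose by 0.78 (SE 0.10, adjusted p = 0.00281). Both lie on chromosome 12, and of the 20 tested genes nearest to CD9 10 rose and none fell (median 0.50), while of the 20 nearest to TSPAN9 7 rose and none fell (median 0.35); the part of these surroundings in the 2 values was not tested. TSPAN14, a partner of the protease ADAM10, fell by 0.90 (SE 0.13, adjusted p = 0.00517), and also differed among control clones (adjusted p = 0.0444). TSPAN6 fell by 0.34 (SE 0.09, adjusted p = 0.0395), a call that 6 of 13 alternatives ended. TSPAN2 had 0.408 ± 0.484 CPM in the E7 libraries and 1.65 ± 1.24 CPM in the control libraries and fell by 1.91 (SE 0.31, adjusted p = 0.00739), and it also differed among days in the control clones (adjusted p = 4.78e-05). The size for TSPAN2 rests on single libraries, at -3.39 without E7 on day A and -1.45 without E7 on day C. CD63 and CD81, widely used as vesicle markers, were at 0.03 and -0.20 and did not pass.

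Of 16 tested partners of tetraspanins in the membrane, integrins for the most part, 6 rose in the E7 clone and none fell. Over all genes tested, 7.58% rose and 6.32% fell. The median log2 change of the 16 was 0.29, and the list was chosen with earlier results of these data known. ITGA6 and ITGB4 form the laminin receptor of hemidesmosomes. ITGA6 had 354 to 403 CPM in the E7 clone and 79.6 to 156 CPM in the control clones and rose by 1.73 (SE 0.11, adjusted p = 0.000231). ITGB4 had 731 to 1229 CPM in the E7 clone and 161 to 389 CPM in the control clones and rose by 1.96 (SE 0.17, adjusted p = 0.000648). For both, every E7 library lay above every control library.

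ITGA3, the alpha chain of another laminin receptor, rose by 1.03 (SE 0.17, adjusted p = 0.00722), and ITGB5, which pairs with the alpha v chain, by 1.00 (SE 0.19, adjusted p = 0.0145). The growth factor receptor EGFR rose by 1.06 (SE 0.12, adjusted p = 0.00152), and PTGFRN, an immunoglobulin protein that binds CD9 and CD81, by 0.38 (SE 0.08, adjusted p = 0.0199), a call lost without control clone 1 (0.36, adjusted p = 0.0567). ITGB1 (0.34), CD44 (0.36) and MET (0.24) did not pass, and EPCAM (-0.23) and CLDN7 (-0.47) had lower values that did not pass either. Among the control clones 5 of the 16 partners differed, ITGB1, ITGB5, CD44, ITGA3 and ITGB4, where 7.8% of all genes did, and 8 of 16 differed among days, near the 38.2% of all genes. In the fit with day as a replicate block 12 of the 16 passed (5187 of all 14869 genes), and with 18qNE clones as the reference none did (79 of all 15155 genes), at log2 changes of 1.22 for ITGA6 and 1.53 for ITGB4. In the 18qNE clones ITGA6 and ITGB4 were at 0.45 and 0.47, and in the 18qE clones at -0.09 and 0.05, and neither passed. The 16 partners had a median log2 change of 0.21 for 18qNE and 0.17 for 18qE, and the 14 tested in HEK293 of 0.49, with no gene called.

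**Figure D4:**
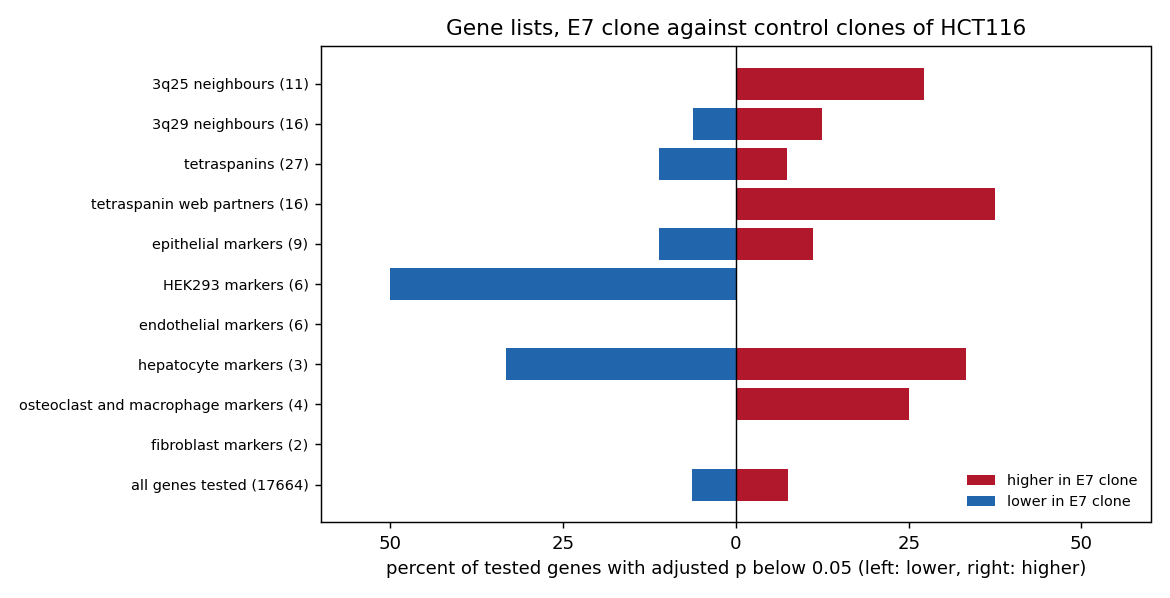
Percent of the tested genes of each list that were higher (right) or lower (left) in the E7 clone than in the control clones of HCT116 with an edgeR adjusted p below 0.05; the number of genes tested stands in brackets. All genes tested are at 7.58% higher and 6.32% lower, and the genes called among the partners of tetraspanins and the 3q25 neighbours were all higher. Of the 4 osteoclast and macrophage markers tested, 1 was called, LYZ, which was higher. The median log2 change of these 4 was -0.63.

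How often a gene was on in a single clone was counted over all genes by the limits used for the members. In the E7 clone, 4 of 57820 genes (0.00692%) were on in its 3 libraries and off in the 19 libraries of the other 9 clones: TM4SF18, MIA, TUSC3 and the unnamed gene ENSG00000225720. None of the other 9 clones had such a gene, but a gene on in several clones of a group could not be counted. E7 is the only HCT116 group of 1 clone. TM4SF18 was chosen on these counts, so its place among the 4 was fixed in advance. At 5 CPM instead of 1 CPM, TM4SF18 alone remained, with ENSG00000225720 just short of the limit. SYTL5 and APOBEC3G, described below, were left out by the limit of 3 counts in the other libraries. MIA, a secreted protein first found in melanoma, was at 1.88 to 2.44 CPM in the E7 libraries, TUSC3, which takes part in N-glycosylation, at 1.26 to 2.83 CPM, and ENSG00000225720 at 4.27 to 9.49 CPM, each with at most 1 count in any other library. MIA is on chromosome 19 and TUSC3 on chromosome 8, away from TM4SF18, and the position of ENSG00000225720 was not looked up.

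The reverse state was counted in the same way. In the E7 clone 5 of 57820 genes (0.00865%) were off and on in all other libraries: DPEP1, a membrane dipeptidase of many colorectal tumours, NFIB, a transcription factor, CD33, a Siglec of the myeloid lineage, SDR16C5, a retinol dehydrogenase, and ZNF550, a zinc finger protein. Of the other 9 clones, control clone 3 and 18qNE clone 1 had 1 such gene each and the rest none. A clone with 1 library meets these limits more easily for itself than a clone with 3, so the counts of clones with different numbers of libraries are not compared.

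**Figure D5:**
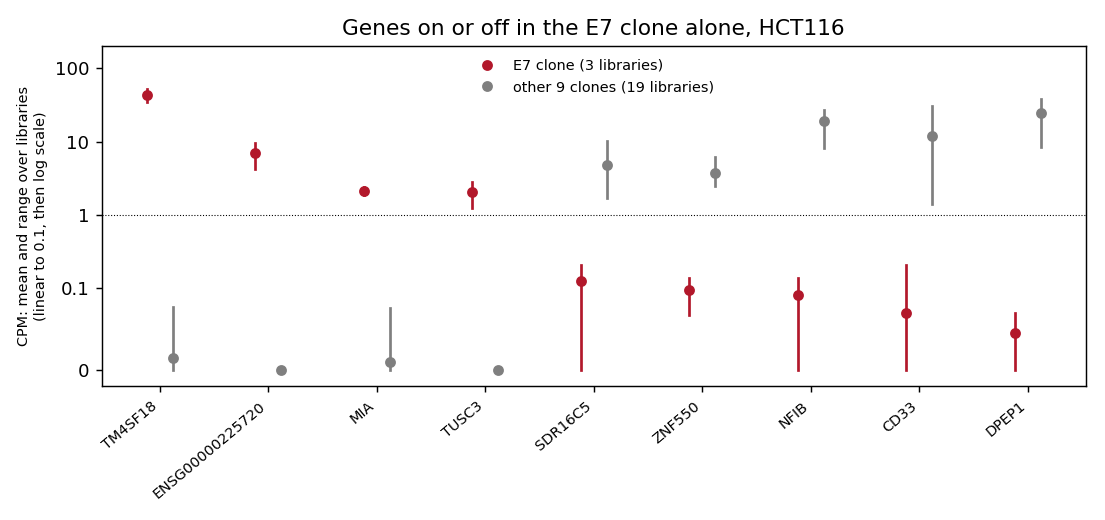
Mean (point) and range (line) of CPM of the genes that were on (left 4) or off (right 5) in the E7 clone alone, over its 3 libraries and over the 19 libraries of the other 9 HCT116 clones; the dotted line marks 1 CPM and the axis is linear to 0.1 CPM and logarithmic above. TM4SF18 is at 34.0 to 52.4 CPM in the E7 clone, and levels of different genes are not compared, since CPM is not corrected for gene length.

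The genes whose pattern was most like that of TM4SF18 were taken by Pearson's r of log2(CPM + 1) over the 22 HCT116 libraries among 11920 genes with at least 5 CPM in 1 or more libraries. They were ENSG00000225720 (r = 0.995), APOBEC3G (0.992), SYTL5 (0.989), VIM-AS1 (0.977) and LINC01405 (0.975). These values rest on the 3 E7 libraries, which share 1 clone, against the 19 others, and describe that separation alone. APOBEC3G, a cytidine deaminase, was at 91.6 to 230 CPM in the E7 libraries and 0.130 to 1.28 CPM in the others. SYTL5, a vesicle transport protein, was at 7.23 to 14.3 CPM in the E7 libraries and 0 to 0.439 CPM in the others. For TM4SF19 the closest gene was MFSD9, a transporter-like membrane protein, at r = 0.786, and the next 4 had r of 0.679 to 0.703; with 3 to 18 counts a library, these give no pattern to speak of. TM4SF1 and TM4SF4 had too few counts for a comparison.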

How the data were processed

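RNA-seq counts per gene of 26 libraries were used; the 6 chromatin samples were not analysed here. The deposited values are raw counts, which the authors left without normalization. Per the submitters' processing notes, TopHat2 and HTSeq 0.6.1 were among the tools and the build was hg19; per the labels' protocols, single-end libraries were made with a TruSeq kit. Summary lines of the files stayed out of library sizes, and symbols, gene order and promoter sequences came from RefSeq tables of GRCh38.p14.

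Genes were tested with edgeR 4.0.16 in R 4.3.3 (quasi-likelihood F test, 2-sided, TMM, filterByExpr with a minimum count of 10, Benjamini-Hochberg over all genes tested, threshold 0.05); DESeq2 1.42.0 was an alternative. The clone was the replicate: days A, B and C were summed per clone for E7, and days A and B for the controls of 18qNE. The alternative fit of E7 with day as a replicate block counted libraries of the same clone as separate samples. With 18qNE clones as the reference, E7 was summed over days A and B only. In HEK293 both E7 libraries, of 1 clone label, entered as 2 samples, so its p-values measure the spread between libraries. Since E7 has 1 clone, its spread was taken from the control clones. The 4 genes, all lists and the naming rule were chosen with earlier results of these data known. The rule names the 4 genes, the 2 nearest genes on each side, up to 6 passing genes a list with the largest change, and 5 genes by likeness a member; other genes named were chosen after their values were seen. Tests were run on simulated counts first. Intervals and floors cover counting error only, since reads without molecular identifiers are not independent molecules.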

Additional observations from a re-analysis of the deposited data

Results flagged for a closer look

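Among 31 genes looked at, 1 control clone stood apart from the other 3 by Dixon's gap: TSPAN14 was at 146 CPM in control clone 4 and 114 to 119 CPM in the others, a gap of 0.857 of the whole range, above the 95% critical value for 4 samples. Chance flags about 1 in 20 such groups.

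In 2 marker genes of HEK293 every E7 library moved one way in HCT116 and the opposite way in HEK293, and the difference between the lines was not tested. DPYSL3, a cytoskeletal protein of neurons, was at 5.49 CPM in E7 and 77.2 CPM in control libraries of HCT116, and at 136 CPM in E7 and 119 CPM in control libraries of HEK293. HOXA10, a homeobox factor, was at 17.3 CPM in E7 and higher in control libraries of HCT116, where it fell by 0.63 on the log2 scale, and at 175 CPM in E7 and 95.5 CPM in control libraries of HEK293. Neither change passed in HEK293 (log2 change 0.13, SE 0.17, and 0.79, SE 0.37). Of the 7 HEK293 markers tested there, 1 other was higher and passed, where 3 of 11806 genes passed in all.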

How the results depend on the processing

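TM4SF18 in the E7 clone averaged 37.3 to 46.5 CPM without 1 library and 41.6 CPM with TMM-scaled library sizes. The log2 change of TM4SF19 in the E7 clone lay at 0.336 to 0.657 without 1 clone or library and at -0.194 with 18qNE clones as the reference. In the 18qNE clones it lay at 0.745 to 1.14 and in the 18qE clones at -0.619 to 0.574 without 1 clone, turning to -0.0852 without control clone 2. HPS3 ran from -0.0898 to 0.324 and PCYT1A from -0.115 to 0.0368 without 1 clone or library, both turning without E7 on day A. Of 25 named genes that passed in the E7 clone, 22 did not with 18qNE clones as the reference.

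The count of genes passing in the E7 clone (2456) was 1477 to 3087 without 1 clone or library, 79 with 18qNE clones as the reference and 5187 for single libraries with extraction day as a replicate block. The 3q25 neighbours that passed were 2 to 4 without 1 clone or library, 0 against 18qNE and 7 with the replicate block; the partners of tetraspanins were 5 to 8, 0 and 12. In the 18qNE comparison the count was 0 to 1 without 1 clone, 16 without the filter, 13 by DESeq2 and 3 with the day as a term. In the 18qE comparison it was 0 to 132 without 1 clone and 19 by DESeq2. In HEK293 it was 74 to 6210 without 1 library, 463 by DESeq2, 670 with the number as a replicate block and 71 with the E7 libraries summed. Between control clones it was 308 to 1694 without 1 day and 1959 without the filter, and between days 2227 to 6465 without 1 clone. The cause of these shifts was not tested.

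Clone numbers were not taken as pairs, since the labels give them no shared origin: same-numbered 18qNE and control clones had correlations of -0.177, -0.175 and 0.07, the 18qE pairs 0.0429 and the HEK293 pairs 0.336. With the replicate block TM4SF19 was at 1.07 in the 18qNE clones and 0.0434 in the 18qE clones, and 0 genes passed in either. Of a member with 0 counts, depth limits the statement to the floor of 3 counts.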

Other observations

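Markers of cell types in which the 4 genes are best known, and of fibroblasts, epithelia and HEK293, were measured in the same libraries. Over all genes tested in the E7 clone, 7.58% rose and 6.32% fell. Endothelial markers (9 matched) summed to 46.1 to 53.9 CPM in the E7 libraries and 47.4 to 75.1 CPM in the control libraries, and 0 of 6 tested genes passed. The endothelial cadherin CDH5 was at 0 in the E7 libraries, and also in the 18qNE clones and the control clones of day D. Osteoclast and macrophage markers (10) summed to 3.83 to 5.92 CPM in the E7 libraries and 3.74 to 6.85 CPM in the control libraries, with the fusion genes DCSTAMP and OCSTAMP at 0 in every group. Of 4 tested, with a median log2 change of -0.63, LYZ, the lysozyme of macrophages and gut, rose by 1.93 (edgeR adjusted p = 0.00621). The call of LYZ ended with day A left out (1.59, adjusted p = 0.122) and with 18qNE clones as the reference (2.99, adjusted p = 0.185). Fibroblast markers (10) summed to 12.3 to 22.6 CPM in the E7 libraries and 17.8 to 30.3 CPM in the control libraries, and 0 of 2 tested genes passed.

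Hepatocyte markers (10) summed to 28.3 to 36.2 CPM in the E7 libraries and 7.39 to 18.8 CPM in the control libraries. APOB, APOH, TTR, FGB and AHSG were at 0 in the E7 libraries, and of these APOB and TTR were at 0 in the 12 control libraries too. A gene is at 0 throughout 3 libraries more easily than throughout 12. Of 3 tested, SERPINA1, the alpha-1 antitrypsin of liver and gut, rose by 3.71 (SE 0.34, edgeR adjusted p = 0.000771), at 30.4 CPM in the E7 libraries and 2.32 CPM in the control libraries, and it differed among control clones too (adjusted p = 0.0146). HNF4A, a regulator of liver and intestinal genes, fell by 5.06 (SE 0.35, adjusted p = 0.000302). Of 9 tested epithelial markers KRT19 rose by 0.36 (adjusted p = 0.0457) and CDH1 fell by 0.73 (adjusted p = 0.0185), calls that 5 and 2 of 13 alternatives ended, among them the fit without control clone 2 for both. Of 6 tested HEK293 markers DPYSL3 fell by 3.78, GATA3 by 2.59 and HOXA10 by 0.63, and the list summed to 40.1 to 48.7 CPM in the E7 libraries and 115 to 145 CPM in the control libraries, with NEFM, INA and SOX11 at 0 in both. The counts of these short lists stand beside 13.9% called over all genes tested in the E7 clone. The endothelial, hepatocyte, and osteoclast and macrophage lists were measured because members of the 4 genes are known from such cells. The fibroblast, epithelial and HEK293 lists were measured beside them. The part of any of these lists in the TM4SF18 level was not tested.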
